A study of Mus musculus with 3 samples.

Results

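The TAM receptors and their ligands were 5 of the 31053 genes in the matrix, found there by symbol. They were the receptor tyrosine kinases Mertk, Axl and Tyro3 and the bridging ligands Gas6 and Pros1. Each symbol had 1 row. The study compared the striatum of control mice with that of mice after ischemic stroke (middle cerebral artery occlusion) or hemorrhagic stroke (collagenase injection), all of strain C56BL6 (as the labels spell it) and 10 weeks old. Dissociated brain tissue of several mice gave 1 droplet library (Chromium 3′ v3) per condition, for which no time after stroke is stated, and the 3 libraries were deposited as 1 joint matrix of UMI counts (a UMI marks 1 captured RNA molecule). The cell barcodes of the libraries end in 1, 2 or 3, but the sources used here do not pair these suffixes with the conditions. All values are therefore given over the joined libraries and by barcode suffix, no condition was compared, and no test was run.

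TAM receptors recognize dying cells, synapses and shed membrane through an intermediary. Gas6 and protein S, the product of Pros1, bind phosphatidylserine on the outer face of the membrane at 1 end and the receptor at the other, and both need a vitamin K-dependent modification to do so. Gas6 is a ligand of all members of the receptor family, whereas protein S acts through Tyro3 and Mertk. Mertk is known for the daily engulfment of apoptotic cells and for the removal of synapses by astrocytes and microglia. Axl is known as the receptor of inflammatory settings, and Tyro3 as the member most abundant in neurons and in myelinating cells.

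Mertk (ENSMUSG00000014361) lies on the plus strand of chromosome 2 from 128698956 to 128802894 in the GENCODE M21 annotation of GRCm38, the build of the mm10 name in the labels. Tyro3 (ENSMUSG00000027298) lies on the same strand of chromosome 2, from 119797733 to 119818104. Axl (ENSMUSG00000002602) is on the minus strand of chromosome 7 from 25757273 to 25788705. Gas6 (ENSMUSG00000031451) is on the minus strand of chromosome 8 from 13465374 to 13494490, and Pros1 (ENSMUSG00000022912) on the plus strand of chromosome 16 from 62854307 to 62929346. All 5 are protein-coding. The promoters of the 3 receptors are shown because each receptor had a different leading class of cells. Each run covers 250 bases before to 50 bases after the RefSeq start of the gene in GRCm38.p6, read 5′ to 3′ on the strand of the gene, and capitals mark GC boxes (GGGCGG on either strand, overlaps counted). Mertk is chr2:128698665-128698964 (plus), Axl is chr7:25788684-25788983 (minus) and Tyro3 is chr2:119799264-119799563 (plus). The Tyro3 window lies inside the gene as GENCODE gives it, past the start at 119797733, whereas the Mertk and Axl windows span their GENCODE starts.
Mertk: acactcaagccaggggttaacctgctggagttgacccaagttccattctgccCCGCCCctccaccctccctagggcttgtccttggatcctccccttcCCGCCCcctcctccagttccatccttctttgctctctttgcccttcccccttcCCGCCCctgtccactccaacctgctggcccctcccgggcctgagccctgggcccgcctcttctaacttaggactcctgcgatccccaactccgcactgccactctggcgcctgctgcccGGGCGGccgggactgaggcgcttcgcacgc
Axl: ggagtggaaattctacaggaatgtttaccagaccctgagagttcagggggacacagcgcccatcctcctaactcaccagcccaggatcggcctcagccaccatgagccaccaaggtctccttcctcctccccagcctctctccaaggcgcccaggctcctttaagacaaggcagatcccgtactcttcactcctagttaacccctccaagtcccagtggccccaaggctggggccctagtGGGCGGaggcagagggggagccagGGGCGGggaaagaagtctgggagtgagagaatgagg
Tyro3: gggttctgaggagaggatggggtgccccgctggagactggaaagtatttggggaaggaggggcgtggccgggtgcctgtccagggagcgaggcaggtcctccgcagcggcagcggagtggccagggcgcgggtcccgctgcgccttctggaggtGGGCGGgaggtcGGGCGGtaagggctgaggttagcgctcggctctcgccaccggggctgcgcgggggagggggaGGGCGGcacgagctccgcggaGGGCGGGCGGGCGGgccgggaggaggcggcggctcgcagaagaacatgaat

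The Tyro3 promoter held 6 GC boxes, of which the last 3 overlapped, beside 4 in Mertk, 4 in Gas6, 5 in Pros1 and 2 in Axl. At least 1 GC box was present in 35.7% of the 32851 promoters of the same length. The GC content was 73.3% for Tyro3, 66.7% for Pros1, 66% for Mertk, 60.3% for Axl and 58.3% for Gas6, and the median over all promoters was 52.7%. None of the 5 windows held a PU.1 site (GAGGAAGT, in 3.2% of promoters), an interferon-stimulated response element (3.44%) or a TATA box (TATAAA, 13.6%). Pros1 alone held a gamma-activated site (TTCNNNGAA, 8.3% of promoters) and a Sox core (ACAAAG, 18.7%). These are matches of letters in a short window, and no binding was measured.

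Of 35968 barcodes, 31982 had at least 1000 UMIs and at most 30% mitochondrial counts, 8969, 13769 and 9244 of them in the libraries of suffix 1, 2 and 3, at a median of 5801 to 6389 UMIs. A barcode was given a class when it held at least 4 UMIs over at least 3 markers of that class and at least 3 times the marker UMIs of any other class. This gate left 26353 barcodes (82.4%) with 1 class, and 16 classes with at least 30 cells are described. The 2584 barcodes in which no class led were kept out of all classes, and no other doublet call was made. Classes carry the ending "-like" because they rest on markers alone. Every described class had most of its markers in at least 25% of its cells. The gate itself asks for these markers, so this is no separate check of the class names. Neuron-like cells (122) were led by Avp and Scg2, and monocyte/dendritic-like cells (48) by major histocompatibility genes. The libraries differed in what they held. Of 1043 endothelial-like cells 1024, and of 153 pericyte-like cells 150, came from suffix 3, whereas 23 of 2388 T-cell-like cells did. Between libraries, 110 barcode sequences recurred, 90 of them among the kept barcodes, and 19 of these had the same gate result in each library. Levels are given as CPM (the UMIs of a gene over all UMIs of a class, scaled to a total of 1000000 UMIs), with exact Poisson 95% intervals, and shares of cells with a UMI have exact Clopper-Pearson 95% intervals. Both cover counting error only. Each molecule was counted once at its 3′ end, so levels were not scaled by gene length.

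Mertk, the engulfment receptor, was highest in astrocyte-like and microglia-like cells. Astrocyte-like cells held 191 CPM (168 to 217), with a UMI in 40.9% of 301 cells (35.3 to 46.7) at a median of only 3082 UMIs per cell. Their median mitochondrial share was 9.86%, beside 2.32% in microglia-like cells. With a mitochondrial limit of 10%, 153 astrocyte-like cells were left and held 165 CPM (139 to 195). Microglia-like cells held 130 CPM (127 to 132), with a UMI in 61.3% of 8963 cells at a median of 7538 UMIs, and border-associated macrophage-like cells held 119 CPM (100.1 to 140). When each cell was thinned to 1000 UMIs, the share with a Mertk UMI was 19.6% in astrocyte-like and 14.2% in microglia-like cells, the same order as the CPM. The ratio of microglia-like to border-associated macrophage-like cells had an interval that held 1 in the joined libraries (1.094, 0.928 to 1.30), but 140 of the 178 border-associated macrophage-like cells came from suffix 3. Within each library their Mertk level was below the microglia-like one, with 71.0 CPM (35.5 to 127) against 121 in suffix 1, 41.5 (15.2 to 90.2) against 105 in suffix 2 and 139 (116 to 165) against 234 in suffix 3, and the intervals were apart in suffix 2 and 3. Smooth muscle-like cells followed with 68.2 CPM, pericyte-like cells with 48.3 and endothelial-like cells with 31.8. OPC-like cells (oligodendrocyte precursors) held 18.3 and neutrophil-like cells 18.0 CPM, a pair that counting error did not separate. Among classes that should lack the receptor, T-cell-like cells held 3.59 CPM, with a UMI in 1.59% of 2388 cells at a median of 4792.5 UMIs, and neuroblast-like cells held 1.78 CPM at a median of 5040.5 UMIs. Neuron-like cells had 0 Mertk UMIs, which allows up to 1.95 CPM, and monocyte/dendritic-like and B-cell-like cells also had 0.

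The lead of astrocyte-like over microglia-like cells, 1.47 times in the joined libraries (1.29 to 1.67), was not the same in each library. In suffix 1 astrocyte-like cells held 211 CPM (151 to 287) and microglia-like cells 121 (116.5 to 125). In suffix 2 the values were 123 (87.9 to 168) and 105 (102 to 108), and in suffix 3 they were 215 (183 to 251) and 234 (225 to 242). The intervals of both classes thus overlapped in suffix 2 and 3 and were apart in suffix 1. Microglia-like Mertk itself was highest in suffix 3, at 2.23 times its level in suffix 2 (2.13 to 2.33). In microglia-like cells, 35% of 12036 genes differed by a factor of 2 or more between the highest and lowest library, and of the members Mertk, Axl and Tyro3 did. In astrocyte-like cells the share was also 35%, and of the members Gas6 did.

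Axl, the receptor linked to inflammation, had its highest level in pericyte-like cells, which lie in the vessel wall. Pericyte-like cells held 154 CPM (126 to 187), with a UMI in 49.7% of 153 cells, 2.13 times the 72.3 CPM of smooth muscle-like cells (ratio interval 1.44 to 3.21). This first place rested on suffix 3, which gave 150 of these cells. Suffix 1 and 2 gave 1 and 2, too few to read the order there. A leading class at 2 or more times the next was found for 26.9% of 11553 genes, and of the 5 members Axl and Tyro3 met this. Smooth muscle-like and microglia-like cells (66.8 CPM, 29.4% of cells) were not separated in the joined libraries. They were alike in suffix 2, with 71.6 CPM (34.4 to 132) and 76.3, but in suffix 3, which gave 46 of the 67 smooth muscle-like cells, these held 74.1 CPM (48.4 to 109) and microglia-like cells 2.85. Astrocyte-like cells held 51.5 CPM, border-associated macrophage-like cells 37.9 and monocyte/dendritic-like cells 34.8, and each neighbour in this run of 3 had a ratio interval that held 1. Endothelial-like cells, which line the same vessels as the pericyte-like cells, held 2.91 CPM (1.92 to 4.24) and neuroblast-like cells 1.96. T-cell-like cells held 5.96 CPM and mature oligodendrocyte-like cells 5.08.

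In microglia-like cells, Axl differed between libraries by a larger factor than any other member. It was 82.7 CPM (79.2 to 86.4) in suffix 1, 76.3 (73.7 to 78.9) in suffix 2 and 2.85 (1.995 to 3.94) in suffix 3, a span of 29.0 times. The share of microglia-like cells with a UMI was 36.6%, 36.3% and 1.82%, at similar median depths of 7783, 8119.5 and 6802 UMIs. Other classes of the suffix 3 library held Axl. There pericyte-like cells held 154 CPM and astrocyte-like cells 49.5 (34.8 to 68.2), beside 73.8 and 43.1 for astrocyte-like cells in suffix 1 and 2. Border-associated macrophage-like cells held 103 (59.1 to 168), 62.2 (28.4 to 118) and 23.0 (14.2 to 35.1) CPM in suffix 1, 2 and 3. Mature oligodendrocyte-like cells had little Axl throughout, and their 6.36, 9.45 and 0.296 CPM were also lowest in suffix 3. With 1 library per condition, a difference between libraries and one between conditions cannot be told apart.

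Tyro3 was highest in mature oligodendrocyte-like cells, those that make myelin. Mature oligodendrocyte-like cells held 126 CPM (123 to 128), with a UMI in 51.7% of 10010 cells (50.8 to 52.7), and their level was 5.77 times that of OPC-like cells (4.18 to 8.20). OPC-like cells held 21.8 CPM, astrocyte-like cells 19.8, pericyte-like cells 13.6, neuroblast-like cells 12.05, neutrophil-like cells 11.4 and choroid plexus-like cells 10.7. In this order no class was separated from the next by counting error. Further apart, the OPC-like interval (15.4 to 30.1) lay above those of neuroblast-like (10.1 to 14.3) and choroid plexus-like cells (7.58 to 14.7). Neuron-like cells held 7.14 CPM (3.56 to 12.8) from 11 UMIs. Microglia-like cells held 2.002 CPM (1.71 to 2.34) and T-cell-like cells 2.67. By library, mature oligodendrocyte-like cells held 129, 109 and 138 CPM in suffix 1, 2 and 3. This was a span of 1.26 times in a class in which 13.2% of 12544 genes differed by a factor of 2 or more between libraries, as Axl and Pros1 did among the members. Newly formed oligodendrocyte-like cells, the stage between the precursors and the mature cells, numbered 3 and were not described.

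**Figure D1:**
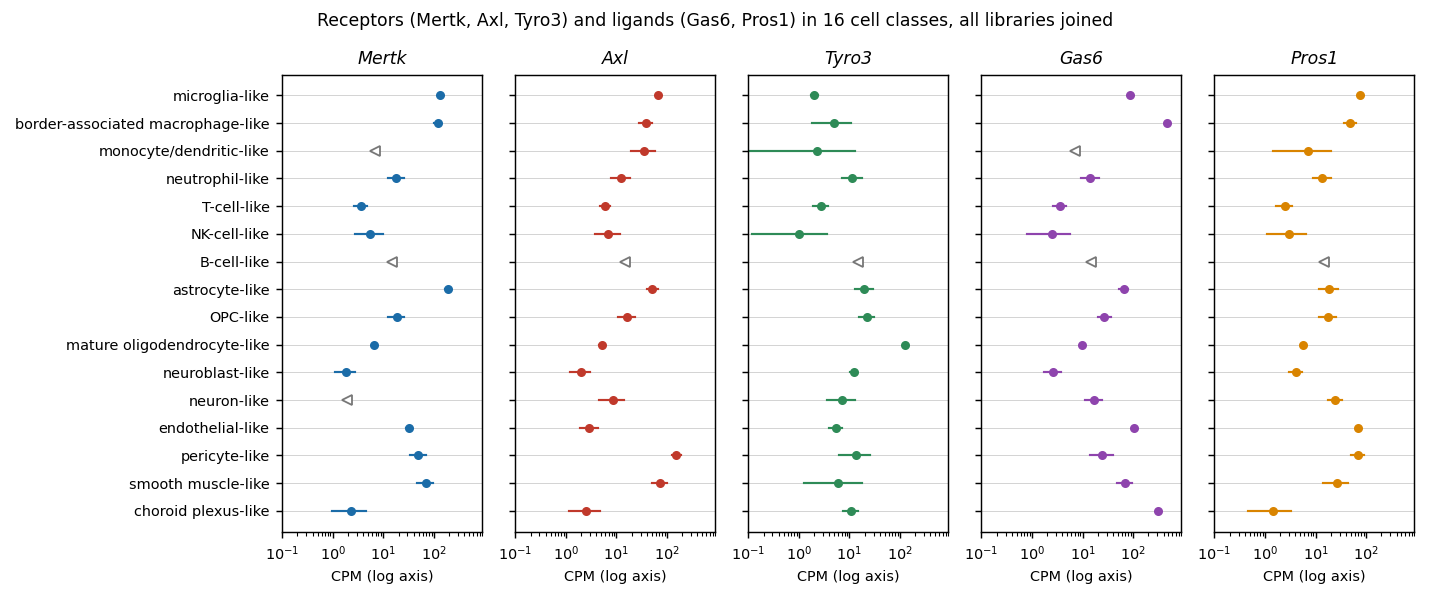
Level of each member in the 16 classes with all libraries joined, in CPM on a log axis. Points are levels, bars exact Poisson 95% intervals (cut at the left edge where they run below it), and open triangles mark classes with 0 UMIs at the level that 3 counts would give. Mertk peaks in astrocyte-like and microglia-like, Axl in pericyte-like, Tyro3 in mature oligodendrocyte-like, Gas6 in border-associated macrophage-like and choroid plexus-like, and Pros1 in microglia-like, endothelial-like and pericyte-like cells.

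Gas6, the ligand of all family members, was found at high level in border-associated macrophage-like and choroid plexus-like cells. Border-associated macrophage-like cells held 460 CPM (422 to 500), with a UMI in 80.3% of 178 cells, and 46.6% of these cells held 3 UMIs or more. Choroid plexus-like cells held 308 CPM (290 to 327), with a UMI in 87.9% of 198 cells at a median of 15078 UMIs. Endothelial-like cells followed with 106 CPM (99.2 to 113) and microglia-like cells with 85.1 (83.1 to 87.2), and these levels were separated in the joined libraries. Within suffix 3, which held nearly all endothelial-like cells, the order was the other way, with 105 CPM (98.8 to 112) in endothelial-like and 118 (112.5 to 125) in microglia-like cells. Smooth muscle-like (68.2 CPM) and astrocyte-like cells (65.0) were not separated. T-cell-like cells held 3.51 CPM and neuroblast-like cells 2.59. The 48 monocyte/dendritic-like cells had 0 Gas6 UMIs, which allows up to 6.95 CPM.

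The first place of border-associated macrophage-like cells rested on the library of suffix 3, which gave 140 of the 178 cells. They held 540 CPM (494 to 590) there, 207 (141 to 292) in suffix 1 and 221 (151 to 312) in suffix 2. Choroid plexus-like cells, with only 3 cells in suffix 3, held 294 (269 to 322) and 319 (294 to 346) CPM in suffix 1 and 2. In suffix 1 and 2 the choroid plexus-like level was thus the higher value, but the intervals of both classes overlapped. Border-associated macrophage-like cells numbered only 20 and 18 in these libraries. Without suffix 3 they held 214 CPM (165 to 273). Microglia-like cells held 76.1 and 80.7 CPM of Gas6 in suffix 1 and 2, and astrocyte-like cells 42.2, 36.9 and 82.9 in suffix 1, 2 and 3.

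Pros1, which encodes protein S, was spread over microglia-like and vascular cells. Microglia-like cells held 76.5 CPM (74.6 to 78.5), with a UMI in 45.3% of cells. Endothelial-like cells held 69.8 CPM (64.5 to 75.4) and pericyte-like cells 69.5 (50.9 to 92.7), and the ratio of microglia-like to endothelial-like cells was 1.10 (1.01 to 1.19). Border-associated macrophage-like cells held 48.6 CPM, smooth muscle-like cells 26.1, neuron-like cells 24.7, astrocyte-like cells 18.2 and OPC-like cells 17.7. T-cell-like cells held 2.44 CPM. Choroid plexus-like cells, rich in Gas6, had 5 UMIs of Pros1 (1.41 CPM) beside 1095 of Gas6. By library, microglia-like Pros1 was 74.3, 64.3 and 123 CPM in suffix 1, 2 and 3. In suffix 3, the library of nearly all endothelial-like and pericyte-like cells, these held 69.7 (64.4 to 75.3) and 70.2 (51.4 to 93.6) CPM, both below the microglia-like level of that library (117 to 129).

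**Figure D2:**
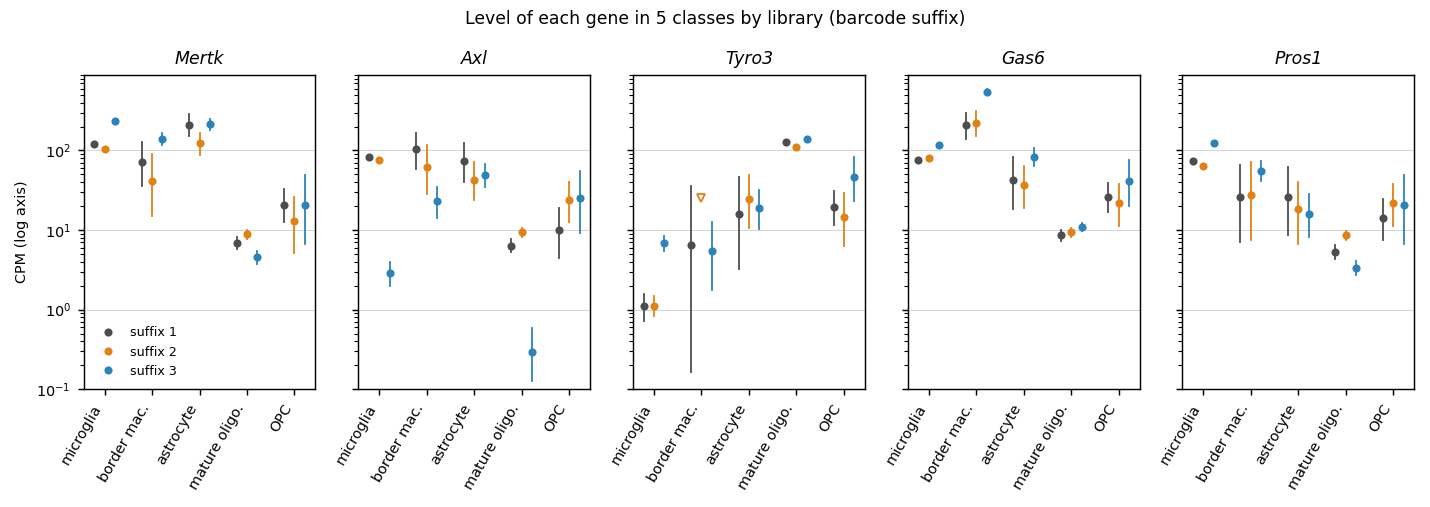
Level of each member by library in 5 classes, in CPM on a log axis; colours mark the barcode suffix, bars are exact Poisson 95% intervals and the open triangle is the upper limit of a class with 0 UMIs. Microglia-like Axl lies at 82.7 and 76.3 CPM in suffix 1 and 2 and at 2.85 in suffix 3, while Tyro3 in mature oligodendrocyte-like cells stays between 109 and 138 CPM.

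Read within each class, the receptor and ligand counts showed which member made up most of its family. Mertk was 65.4% of the receptor UMIs of microglia-like cells, Axl 33.6% and Tyro3 1.01%. This make-up differed by library, with 2976 Mertk, 2038 Axl and 27 Tyro3 UMIs in suffix 1, 4575, 3328 and 49 in suffix 2, and 2951, 36 and 86 in suffix 3, where Axl was below Tyro3. Mertk was also the larger part in border-associated macrophage-like (73.5%), astrocyte-like (72.8%) and endothelial-like cells (79.3%). Tyro3 made up 91.5% of the receptor UMIs in mature oligodendrocyte-like, 76.3% in neuroblast-like and 69.1% in choroid plexus-like cells, and Axl 71.3% in pericyte-like cells. OPC-like cells had no leading receptor by counting error, with 32.3% Mertk, 29.2% Axl and 38.5% Tyro3 and overlapping intervals. Of the 28 Axl UMIs there, 8 came from 1 cell, and free RNA was not taken out of these shares. Of the ligands, Gas6 was 99.5% in choroid plexus-like, 90.4% in border-associated macrophage-like, 78.1% in astrocyte-like and 60.2% in endothelial-like cells. Pros1 was 74.2% in pericyte-like cells, and in microglia-like cells the ligands were near even, with 52.7% Gas6 and 47.3% Pros1. Capture at the 3′ end may differ between genes, which was not tested.

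**Figure D3:**
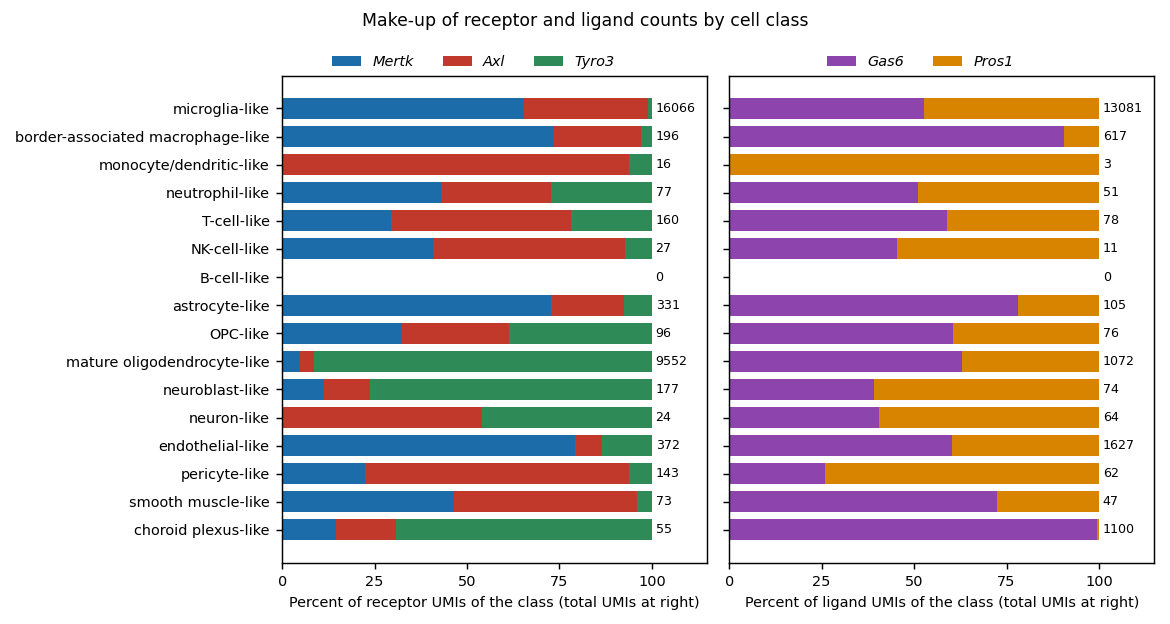
Percent of the receptor UMIs (left) and ligand UMIs (right) of each class that came from each member, with the number of UMIs behind each bar at its right. Mature oligodendrocyte-like cells are 91.5% Tyro3, pericyte-like cells 71.3% Axl, and choroid plexus-like cells 99.5% Gas6; classes with few UMIs, such as monocyte/dendritic-like cells with 16 and 3, rest on little.

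For each member, 1 class held most of its molecules. How many of all genes share this was not computed, and such a share also rises with the size and depth of a class. The classes with the most UMIs of all genes were microglia-like (80905982) and mature oligodendrocyte-like cells (69473820). Microglia-like cells, 34.1% of the cells described, held 88.5% of the Mertk, 86.7% of the Axl, 65.6% of the Gas6 and 81.9% of the Pros1 UMIs of the described classes. Of the UMIs of all kept barcodes, with those outside the described classes, these were 71.8%, 60.04%, 51.8% and 65.9%. In suffix 3, however, microglia-like cells held 36 Axl UMIs, fewer than pericyte-like cells. Mature oligodendrocyte-like cells, 38.0% of the cells, held 94.2% of the Tyro3 UMIs (86.6% of those of all kept barcodes), but 3.895% of the Mertk and 5.66% of the Axl UMIs. Choroid plexus-like cells, 0.752% of the cells, held 10.4% of the Gas6 UMIs, and endothelial-like cells held 9.33% of Gas6 and 8.56% of Pros1. Astrocyte-like cells, with the highest Mertk level, held 2.03% of its UMIs.

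The share of cells with both a receptor and a ligand differed by class. Such a joint share rises with the share of each family alone, and a link between them was not tested. A receptor was seen in 72.7% and a ligand in 64.6% of microglia-like cells. These shares were 56.7% and 83.7% in border-associated macrophage-like and 21.2% and 87.9% in choroid plexus-like cells. At least 1 receptor UMI and 1 ligand UMI were found together in 49.98% of microglia-like cells (4480 of 8963) and in 49.4% of border-associated macrophage-like cells. The share was 26.9% in smooth muscle-like, 20.7% in choroid plexus-like, 18.7% in endothelial-like, 17.0% in pericyte-like and 16.6% in astrocyte-like cells. In mature oligodendrocyte-like cells a receptor was seen in 53.7% but a ligand in 7.79% of cells, and both in 5.15%. T-cell-like cells held both in 0.586%. These shares move with depth, which ran from a median of 3082 UMIs in astrocyte-like to 15078 in choroid plexus-like cells.

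Among the 2231 microglia-like cells with 6000 to 9000 UMIs, Axl was detected in 15.997% (14.1 to 18.0) of the cells with a Mertk UMI and in 21.3% (18.5 to 24.4) of those without one. Pros1 was detected in 49.8% and 42.8% of the same cells, and Gas6 in 42.1% and 36.0%. Cells with an Axl UMI held Pros1 in 38.3% (33.6 to 43.3) and cells without it in 49.3% (47.0 to 51.6). These shares are over the joined libraries, between which the members differed as given above.

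Because droplets carry free RNA, the low levels were set beside those that microglial RNA alone would give. The UMIs of C1qa, C1qb and C1qc in a class, which number 242 per microglia-like cell, were taken as a measure of microglial RNA of the same library, and the members' UMIs expected from it were compared with those observed. For Mertk the ratio of observed to expected was near 1 in T-cell-like (0.932, 0.685 to 1.24), mature oligodendrocyte-like (1.085, 0.988 to 1.19), neuroblast-like (0.849), NK-cell-like (0.915), neutrophil-like (1.15) and choroid plexus-like cells (1.15). Neuron-like cells had 0 Mertk UMIs against 4.35 expected, an upper limit of 0.848, so there the measure expected more than was observed. The ratio was 30.6 (26.8 to 34.7) in astrocyte-like, 11.3 in endothelial-like, 8.76 in smooth muscle-like, 3.27 in OPC-like and 2.22 in pericyte-like cells. For Axl, the ratio was 553 (451 to 671) in pericyte-like, 34.7 in monocyte/dendritic-like and 16.7 in astrocyte-like cells, and 2.17 (1.71 to 2.71) in T-cell-like and 1.57 in mature oligodendrocyte-like cells. The expectation uses RNA of microglia-like cells only, with 5402 Axl UMIs in 8963 cells at 242 C1q UMIs per cell. The 3045 barcodes that passed no gate held 1209 Axl UMIs at 85.4 C1q UMIs each, which is more Axl per C1q UMI in the joined libraries. Of these barcodes 222 came from suffix 3, and of the microglia-like cells 1817, which held little Axl there, so this comparison mixes libraries. The part that free RNA of the barcodes outside the gates had in these ratios was not tested. The pericyte-like and endothelial-like (62.0) ratios of Axl rest on expected counts of 0.185 and 0.436 UMIs, against 102 and 27 observed, since nearly all these cells are from suffix 3, where microglia-like cells hold little Axl, and their size is uncertain. The monocyte/dendritic-like ratio (19.4 to 57.2) rests on 0.432 expected UMIs against 15 observed, and its size is uncertain too.

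For the ligands, Gas6 stood at 236 times the expected count in choroid plexus-like, 73.8 in endothelial-like, 16.5 in astrocyte-like, 7.17 in OPC-like and 2.39 (2.21 to 2.58) in mature oligodendrocyte-like cells. Pros1 stood at 46.9 times in endothelial-like, 14.2 in neuron-like, 5.20 in OPC-like, 4.96 in astrocyte-like and 3.22 (2.35 to 4.30) in neuroblast-like cells, and at 1.03 in T-cell-like and 1.17 in choroid plexus-like cells. The low Tyro3 levels are given without such an expectation. Microglia-like cells held 6.81 CPM of Tyro3 in suffix 3 (5.44 to 8.41) against 1.10 and 1.12 in suffix 1 and 2, and the part of free RNA in these values is not given here.

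**Figure D4:**
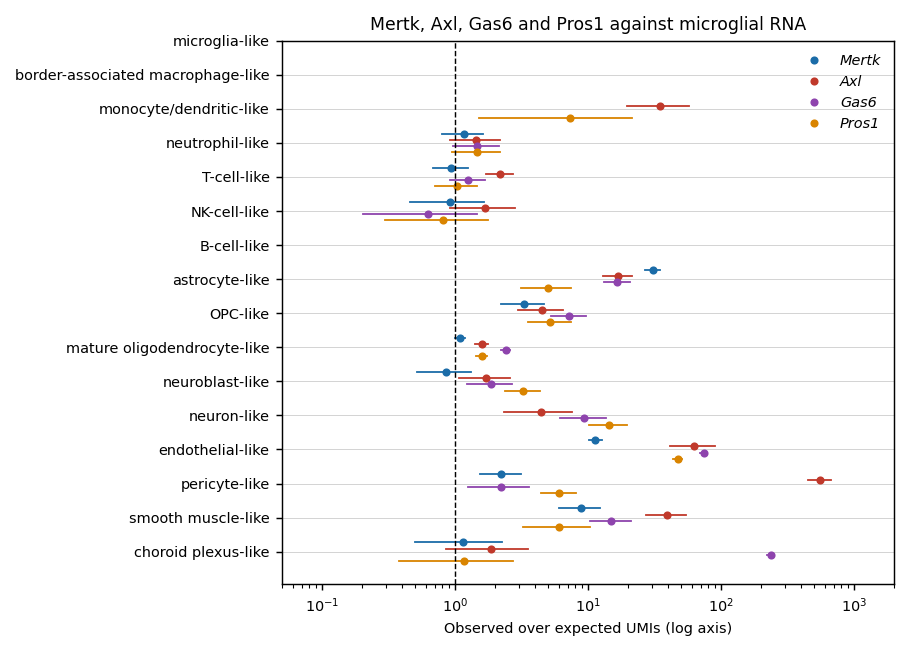
Observed over expected UMIs (log axis, exact Poisson 95% intervals on the observed count) for Mertk, Axl, Gas6 and Pros1 if all C1q UMIs of a class marked microglial RNA. The dashed line is 1; classes with 0 UMIs have no point (for Mertk also neuron-like cells, whose upper limit of 0.848 is below the line), and microglia-like and border-associated macrophage-like cells are left out. Mertk lies at the line in T-cell-like (0.932) and mature oligodendrocyte-like cells (1.085) and far from it in astrocyte-like cells (30.6).

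Microglia-like cells were then split by genes known to be raised in activated microglia: Cst7, a protease inhibitor, Itgax, an integrin, Lpl, a lipase, and Spp1 and Gpnmb, both secreted or shed glycoproteins. Clec7a, a further gene of the list, was not used here. Cells with at least 3 UMIs over at least 2 of these genes (4454) were compared with cells that had 0 UMIs of them (2259), leaving out 2250 between. The gate for microglia-like cells used P2ry12, Tmem119, Siglech, Gpr34, Olfml3, Slc2a5 and Sall1, so the split covers only cells that held such genes. It leaves out 1520 barcodes that held C1q UMIs but passed no gate. Those barcodes were led by Gpnmb and held 104 CPM of Axl and 72.5 of Mertk. Mertk was 94.1 CPM in the positive and 232 CPM in the negative cells, a ratio of 0.405 (0.388 to 0.424). Axl was 92.7 and 5.61 CPM, a ratio of 16.5 (13.2 to 20.9). Over 11694 genes, 5.61% had a ratio of 2 or more and 28% one of 0.5 or less, so Axl was among the few genes on its side and Mertk among many on the other. Pros1 was 61.3 and 114 CPM (0.537), Gas6 85.5 and 99.5 (0.859) and Tyro3 0.853 and 5.47 (0.156).

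Just 10 of the positive cells came from suffix 3, but 1592 of the negative cells did, so these ratios mix state and library. Within the libraries, Mertk was lower in the positive cells in all 3, with ratios of 0.493 (0.442 to 0.551), 0.451 (0.396 to 0.515) and 0.478 (0.238 to 0.856) in suffix 1, 2 and 3. Axl was higher in the positive cells of each, by 5.38 (3.91 to 7.63), 7.17 (4.34 to 12.8) and 8.76 times (1.01 to 35.0), the last on 10 positive cells. Among negative cells alone Axl still differed between libraries, with 19.1, 12.3 and 2.39 CPM. Gas6 turned around: it was 1.94 (1.57 to 2.43) and 1.59 times (1.25 to 2.07) higher in the positive cells of suffix 1 and 2, and 1.78 times (1.52 to 2.11) without suffix 3, while in suffix 3 its ratio was 0.822 (0.375 to 1.56). Pros1 was lower in the positive cells of suffix 2 (0.581, 0.483 to 0.704), and its interval held 1 in suffix 1 (0.856) and suffix 3 (1.11). No within-library ratio of Tyro3 was apart from 1, and its CPM stayed low. Positive cells were deeper, with a median of 11199.5 UMIs against 6050. Among cells with 6000 to 9000 UMIs, a limit added after the data were seen, the joined ratios were 0.546 for Mertk, 13.7 for Axl, 0.180 for Tyro3, 0.595 for Gas6 and 0.573 for Pros1.

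**Figure D5:**
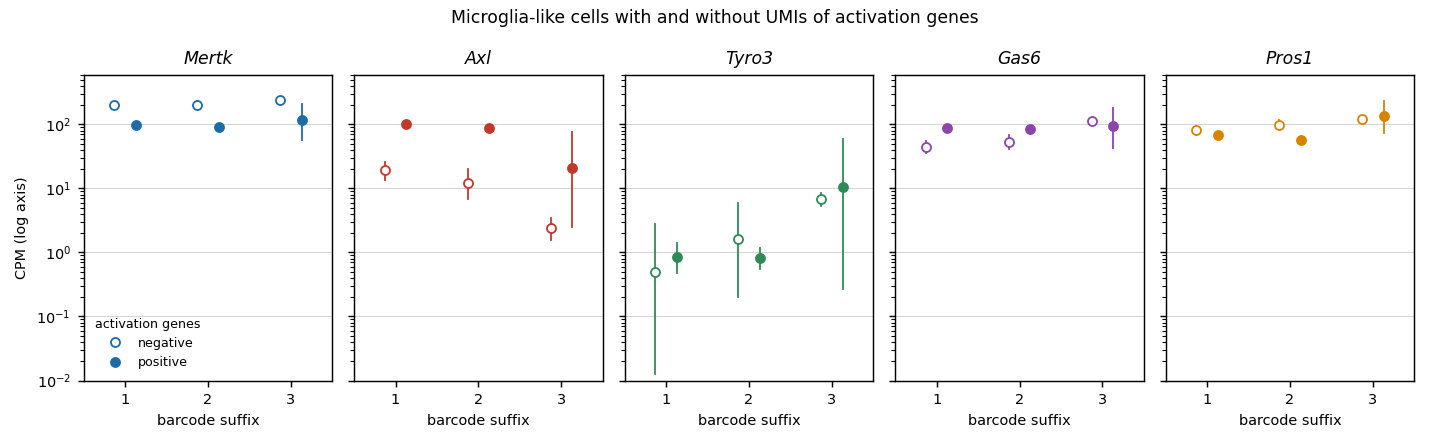
Level of each member in microglia-like cells with 0 UMIs of the activation genes (open points) and with at least 3 UMIs over at least 2 of them (filled points), by barcode suffix, in CPM on a log axis with exact Poisson 95% intervals. Mertk is lower and Axl higher in the positive cells of every library, and the 10 positive cells of suffix 3 have wide intervals.

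Other splits were made by interferon and division genes. In microglia-like cells the positive cells were deeper here too. Median UMIs were 8403 against 4482 by interferon genes and 16120 against 7315.5 by division genes. These and the following split ratios were not repeated at matched depth. By interferon-stimulated genes (7075 positive, 669 negative microglia-like cells), the joined ratio of Axl was 2.54 (2.07 to 3.15), while within suffix 1, 2 and 3 it was 1.08 (0.815 to 1.47), 1.47 (1.09 to 2.05) and 2.19 (0.674 to 11.3). In that split 5.61% of genes had a ratio of 2 or more and 10.6% one of 0.5 or less. Mertk had a joined ratio of 0.589 and 0.912, 0.670 and 0.888 within suffix 1, 2 and 3, of which the first had an interval that held 1. Dividing microglia-like cells (149 with division genes) held 60.1 CPM of Mertk against 135 in cells without, a ratio of 0.444, and 0.403 and 0.548 within suffix 1 and 2. A ratio of 0.5 or less was found for 9.61% of genes there, and one of 2 or more for 9.54%. Axl was 84.8 against 63.6 CPM (1.33, 1.16 to 1.52), with intervals that held 1 within suffix 1 and 2.

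In endothelial-like cells, nearly all from suffix 3, those with arterial genes such as Bmx and Gkn3 (142) were compared with those with none (651). The arterial cells were deeper, with a median of 10866 UMIs against 5291. Mertk was 51.7 against 24.6 CPM, 2.10 times higher in arterial cells (1.59 to 2.77), in a split in which 3.14% of genes had a ratio of 2 or more and 1.88% one of 0.5 or less. Gas6 was 149 against 91.4 CPM (1.63, 1.40 to 1.90), while Pros1 had a ratio of 0.945 (0.767 to 1.16). Axl was 3.15 times higher on levels of 6.39 and 2.03 CPM (1.25 to 8.13).

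Mature oligodendrocyte-like cells with at least 2 Klk6 UMIs and without Il33 (740) were set against those with Il33 and without Klk6 (6217), a pair of known mature states. The other 3053 cells were left out. The cells with Klk6 were deeper, with a median of 9851.5 UMIs against 6174. Tyro3 was 83.7 against 132 CPM (0.634, 0.583 to 0.689), and its ratio was 0.701, 0.502 and 0.649 in suffix 1, 2 and 3, each interval below 1. The shares of cells with a Tyro3 UMI were close, at 53.0% and 53.6%. Gas6 was 14.5 against 7.49 CPM (1.93, 1.54 to 2.41), with 1.87, 1.51 and 2.29 by library, of which the interval of suffix 2 held 1. In that split, 4.09% of genes had a ratio of 2 or more and 5.61% one of 0.5 or less. Astrocyte-like cells with at least 2 Agt UMIs (123) were set against those with 0 (148), leaving out 30 between. There 5.71% of genes had a ratio of 2 or more and 12% one of 0.5 or less. The intervals of all 5 members held 1, for example 187 against 177 CPM of Mertk (1.05, 0.783 to 1.41), so a difference within that interval was not detectable. The sides held 46, 44 and 33 against 6, 42 and 100 cells in suffix 1, 2 and 3, so these ratios mix Agt and library. Within suffix 2 and 3 the Mertk ratios were 1.22 (0.554 to 2.61) and 0.958 (0.630 to 1.42). Dividing neuroblast-like cells (350) held 15.4 CPM of Tyro3 against 8.77 in the 1271 with 0 UMIs of the division genes (1.76, 1.198 to 2.60). The 209 cells between were left out. The interval held 1 within each library (1.52, 1.88 and 1.64 in suffix 1, 2 and 3). The dividing cells were also deeper, with a median of 10912.5 UMIs against 4358.

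The genes most like each member over the 14 classes with at least 50 cells were found by Pearson r of log2(CPM + 1) among 11505 genes. They were Cyp4v3 (r = 0.893), Lpcat3 and Rrbp1 for Mertk, and Pde8b (0.906), Itgb5 and Asph for Axl. For Tyro3 they were Shisa4 (0.926), Aplp1 and Scd2, for Gas6 Hfe (0.885), Dab2 and Trpv4, and for Pros1 Hbegf (0.905), Fos and Adam15. Among the members, Mertk and Axl were most alike (0.764), and Tyro3 was near 0 with each of the others (-0.103 to -0.0269). The classes share libraries and depth, so these are descriptions.

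Genes that work with the TAM system were read from 7 lists of 31 genes, all of them in the matrix. In 25 of them at least 1 class reached 20 CPM, and 3 were led by microglia-like cells. Of the 31053 genes in the matrix, 11505 entered the comparison above, which was limited to genes with at least 20 CPM in a class. That comparison was over 14 classes, whereas the count of 25 was over all 16 described classes, so they need not share a basis. The share of all genes led by microglia-like cells was not computed, so these counts only describe the lists. Those 3 were Itgb5 (500.4 CPM), an integrin chain of the Mfge8 receptor, Sirpa (287 CPM), which reads the do-not-eat-me signal, and Vkorc1 (145 CPM), the vitamin K reductase. The lead of Vkorc1 over OPC-like cells (137 CPM) was only 1.06 times, and no interval was computed for it. Ggcx, the carboxylase that modifies both ligands, reached 14.7 CPM at most, in OPC-like cells. Mfge8, another phosphatidylserine bridge, was at 1293 CPM in smooth muscle-like, 1195 in pericyte-like and 1104 in astrocyte-like cells but at 13.8 in microglia-like cells. Stab1, a scavenger receptor, was at 617 CPM in border-associated macrophage-like cells, 12.5 times the next class. Adgrb1, a phosphatidylserine receptor, was at 112 CPM in astrocyte-like cells, Cd300lf at 331 in neutrophil-like cells, and Lgals3, also described as a Mertk ligand, at 1706 in monocyte/dendritic-like cells. Adam10, a protease, and Adam17, which sheds the Mertk ectodomain, were at 70.0 and 60.2 CPM in microglia-like cells. Socs3, a brake on cytokine signalling that TAM receptors induce, was at 1423 CPM in smooth muscle-like and 319 in microglia-like cells.

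In the split by activation genes, 2 of the 27 genes with enough counts had a ratio of 2 or more and 8 one of 0.5 or less, beside 5.61% and 28% of all genes. The 2 were Lgals3 (248 against 4.97 CPM, 11.5 and 23.0 times within suffix 1 and 2) and Cd300lf (9.22 against 2.34 CPM, 3.93 times). Among the 8 was Elmo1, which relays engulfment signals to Rac1 (52.6 against 154 CPM, 0.341, with 0.376 and 0.295 within suffix 1 and 2). Stab1 had a joined ratio of 0.377 but 0.805 and 0.847 within these libraries. Vkorc1 was higher in the positive cells (163 against 96.5 CPM, 1.69), also within suffix 1 (1.34) and suffix 2 (1.36).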

How the data were processed

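The authors made the deposited counts with Cell Ranger 3.1.0 and the STAR aligner on mm10 and down-sampled reads across libraries; they are whole-number UMI counts per gene and barcode, not normalized, from 3′ v3 libraries, with 69270514 to 105957232 UMIs per library. Their further steps in Seurat 3.1.1 are not in these values. Here barcodes were filtered, gated on raw marker UMIs, and counts summed per class, with no normalization beyond CPM and no batch correction. The 5 members, the marker lists, splits and pathway lists were chosen with earlier results of these data known. Named genes were the members, the markers, the 3 genes most like each member and the pathway lists; genes named as leading a class or a set of barcodes were picked after their values were seen. The matrix was treated as 1 pooled sample, since the sources used here do not pair barcode suffixes with conditions. Cells are not replicates, so no p-value was computed. Ratios have exact conditional binomial 95% intervals. An expected count from free RNA was computed within each library and summed. A gene's share past 2-fold was taken over genes with at least 50 UMIs. Where a class held 0 UMIs, the limit is the level of 3 counts. The gate was tried on 3000 simulated cells with Poisson noise only, drawn from the mean profiles of 6 classes of the same gate. At least 97.2% of each class got their class and 0% another. Of 200 changed genes in such data, 93.5% had a ratio interval that held the fold set. Doublets and variation between cells were not simulated, so these shares do not measure the gate on real cells. Alternatives changed the UMI and mitochondrial limits, added upper limits, and changed the gate, the weighting of libraries and the libraries used. RefSeq promoters (GRCm38.p6) were matched for all 5 members, and 99.6% of identifiers were found in GENCODE M21. Python 3.11.15, NumPy 2.4.6, SciPy 1.17.1, pandas 2.3.3 and Matplotlib 3.10.9 were used.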

Additional observations from a re-analysis of the deposited data

Results flagged for a closer look

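Barcodes outside the described classes also held the members. Those that passed no gate held 56.97 CPM of Mertk, 77.6 of Axl, 4.69 of Tyro3, 43.6 of Gas6 and 34.7 of Pros1. Of these 3045 barcodes 1520 held at least 20 UMIs of C1qa, C1qb and C1qc, with 500, 967 and 53 of them in suffix 1, 2 and 3. Relative to microglia-like cells they were led by Gpnmb, Ms4a7, Lgals3 and Lyz2, and they held 104 CPM of Axl, 72.5 of Mertk, 59.96 of Gas6, 43.3 of Pros1 and 1.15 of Tyro3. Barcodes in which no class led held 64.2 CPM of Mertk, 53.2 of Axl, 25.6 of Tyro3, 68.9 of Gas6 and 44.0 of Pros1, at a median of 9972 UMIs. Barcodes removed for few UMIs or a high mitochondrial share held 40.1 CPM of Mertk, 25.5 of Axl, 99.3 of Tyro3, 27.8 of Gas6 and 26.5 of Pros1.

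Of the classes too small to describe, the 26 ependymal-like cells held 443 CPM of Gas6 (363 to 536) from 107 UMIs and 29.0 CPM of Pros1 from 7. The 8 fibroblast-like cells held 156 CPM of Axl and of Pros1, from 6 UMIs each, and 129.7 CPM of Gas6 from 5. These values rest on few cells, and 5 of the 6 fibroblast-like Axl UMIs came from 1 cell.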

How the results depend on the processing

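Of the values that answer a comparison, 67 stayed within the counting interval under the alternatives, 35 moved past it and 3 turned direction. With a mitochondrial limit of 10%, which left 153 of the 301 astrocyte-like cells, astrocyte-like Mertk was 165 CPM. With the looser gate it was 161 CPM and Gas6 in border-associated macrophage-like cells 316 CPM. The stricter gate gave 525 CPM of Gas6 and 79.4 of Pros1, and a dominance of 10 times gave 536 of Gas6, 85.2 of Pros1 and 131 of Tyro3. Upper limits of the mean plus 2 SD gave 80.7 CPM of Pros1 and activation ratios of 0.440 for Mertk and 0.770 for Gas6. An unweighted mean of libraries gave 199.96 CPM of Axl, 323 of Gas6 and 87.3 of Pros1. That Axl value gives the 1 and 2 pericyte-like cells of suffix 1 and 2 the same weight as the 150 of suffix 3. The activation ratios by this mean were 0.474 for Mertk, 7.10 for Axl and 0.850 for Pros1, and those of Tyro3 (1.25) and Gas6 (1.45) turned above 1. The Tyro3 ratio rests on 1 UMI in the negative cells of suffix 1 and 1 UMI in the positive cells of suffix 3, so its turn is uncertain. Cells with 6000 to 9000 UMIs, chosen after seeing the data, gave 0.546 for Mertk, 0.595 for Gas6 and 0.573 for Pros1.
Leaving out 1 library in turn gave 155 to 214 CPM for Mertk in astrocyte-like cells, 152 to 155 for Axl in pericyte-like, 118 to 135 for Tyro3 in mature oligodendrocyte-like, 214 to 497 for Gas6 in border-associated macrophage-like and 67.9 to 90.9 for Pros1 in microglia-like cells; the Axl value without suffix 3 rests on 3 cells, and the Gas6 value of 214 is the one without suffix 3. The activation ratios ranged from 0.387 to 0.467 for Mertk, 5.63 to 25.9 for Axl, 0.136 to 0.896 for Tyro3, 0.782 to 1.78 for Gas6 and 0.482 to 0.700 for Pros1. Without suffix 3 the ratio of Gas6 turned to 1.78, and those of Axl (5.63) and Tyro3 (0.896) moved most; the cause was not tested. Joining the barcodes outside the gates with C1q UMIs to microglia-like cells, also added after seeing the data, gave 123 CPM of Mertk and 71.0 of Axl. No paired analysis was possible because the labels give 1 sample per condition and no map from barcode suffixes to samples. With 1 library per condition no spread between animals could be estimated, and classes of under 100 cells rest on few UMIs.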
